A study of Mus musculus with 3 samples.

Results

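Genes of cholesterol synthesis, uptake and efflux were followed in mouse bone marrow-derived dendritic cells (BMDCs) given lipopolysaccharide (LPS) with or without a cyclic AMP analogue. The set was a list of 31 named genes. Each was represented by its brightest probe set that the platform annotation gives to 1 gene only, which left 28 of the 31, among 18193 genes so represented on the array. Acat2, an enzyme that joins acetyl-CoA units, Soat1, which esterifies cholesterol, and Nr1h2, which encodes LXR beta, had no such probe set and were not analysed here. The 3 conditions were cells with 10 ng/ml LPS and 100 µM 8-Br-cAMP for 3 h, cells with 10 ng/ml LPS alone for 3 h, and unstimulated cells. Tlr4 senses LPS, an outer membrane component of bacteria. Cells take up 8-Br-cAMP, an analogue of the second messenger cyclic AMP. All 3 cultures came from bone marrow kept 10 days in GM-CSF at 10 ng/ml. The sources used here do not give strain, sex, pooling of animals or any sorting. With 1 Affymetrix mouse array per condition, differences between conditions have neither a replicate check nor a test, and no array had 8-Br-cAMP without LPS.

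Cells make cholesterol from acetyl-CoA through mevalonate, isoprenoid units, squalene and lanosterol. Low sterol in the endoplasmic reticulum lets Scap escort the SREBP factors, encoded by Srebf1 and Srebf2, to the Golgi for cleavage, after which they switch on genes of synthesis and uptake, while the Insig proteins hold Scap back when sterol is plentiful. Excess sterol is sensed as oxysterols by the nuclear receptors LXR alpha (Nr1h3) and LXR beta, which switch on the exporters Abca1 and Abcg1, apolipoproteins and Mylip, a ubiquitin ligase that removes lipoprotein receptors. In macrophages and dendritic cells these genes are known to respond to Toll-like receptor signals.

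The values are MAS5 signals multiplied by 1 factor per array to bring the trimmed means together (1.63 for LPS+8-Br-cAMP, 0.929 for LPS, 0.763 for unstimulated), and they are called scaled signals here. Signals under a floor of 32.5 were set to it, so a difference against such a signal is a lower bound on its size. A difference is a log2 difference between arrays, and a gene was counted as higher or lower at 2-fold. Different probe sets bind with different strength, so signals are compared between arrays and not between genes. From pairs of probe sets of 1 gene, the error of a probe set's log2 difference was 0.48 between the LPS+8-Br-cAMP and LPS arrays (3859 genes), 0.57 between the LPS+8-Br-cAMP and unstimulated arrays (3890 genes) and 0.45 between the LPS and unstimulated arrays (4084 genes). This error covers probe sets within these arrays and not the spread between cultures. Of the 28 genes, 24 were above the floor on all 3 arrays, and Lss, Hsd17b7, Dhcr7 and Nr1h3 were not.

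The cultures also differed in transcripts of sex and of other cells. Xist, the RNA of the silenced X chromosome in females, read 1716 with LPS+8-Br-cAMP, 8.08 with LPS and 32.3 unstimulated, and 3 of 3 measured Y-linked genes were under the floor with LPS+8-Br-cAMP and above it on both other arrays. All 11 granulocyte markers measured were above the floor on every array, with summed signals of 23850 with LPS+8-Br-cAMP, 45044 with LPS and 42703 unstimulated. B and plasma cell markers summed to 263, 3043 and 4979 in the same order of arrays (4, 6 and 6 of 7 above the floor). With LPS+8-Br-cAMP against LPS, 5 of these 7 differed downward and 2 upward, Cd79b (0.10) and Pax5 (at least 0.67). Cd79a, Ms4a1 and Jchain were under the floor with LPS+8-Br-cAMP, and Pax5 was above it on that array only. Eosinophil, basophil and mast cell markers summed to 627, 1740 and 1751 (5, 7 and 7 of 7), and T and NK cell markers to 97.2, 92.1 and 226 (1, 0 and 3 of 5). Dendritic cell markers, 12 of 12 above the floor on every array, summed to 39534, 31118 and 25134, and macrophage markers to 36366, 28011 and 20256 (8, 8 and 7 of 9), with Vsig4 under the floor on all 3 arrays. Such sums follow their brightest probe sets. Without Cd14, the LPS co-receptor gene and the brightest of the macrophage markers, these sums were 15603 with LPS+8-Br-cAMP, 17071 with LPS and 16034 unstimulated. Between LPS+8-Br-cAMP and LPS, 5 of the 8 measured macrophage markers differed upward and 3 downward, with a median of 0.21. The lower ones were Adgre1 (-0.84), Cd68 (-0.77) and Mertk (-1.65), and Mrc1 (1.01) was the highest of the others. The part of these differences in the results below was not tested. In bulk RNA, fewer cells that express a gene and less RNA per cell cannot be told apart.

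**Figure D1:**
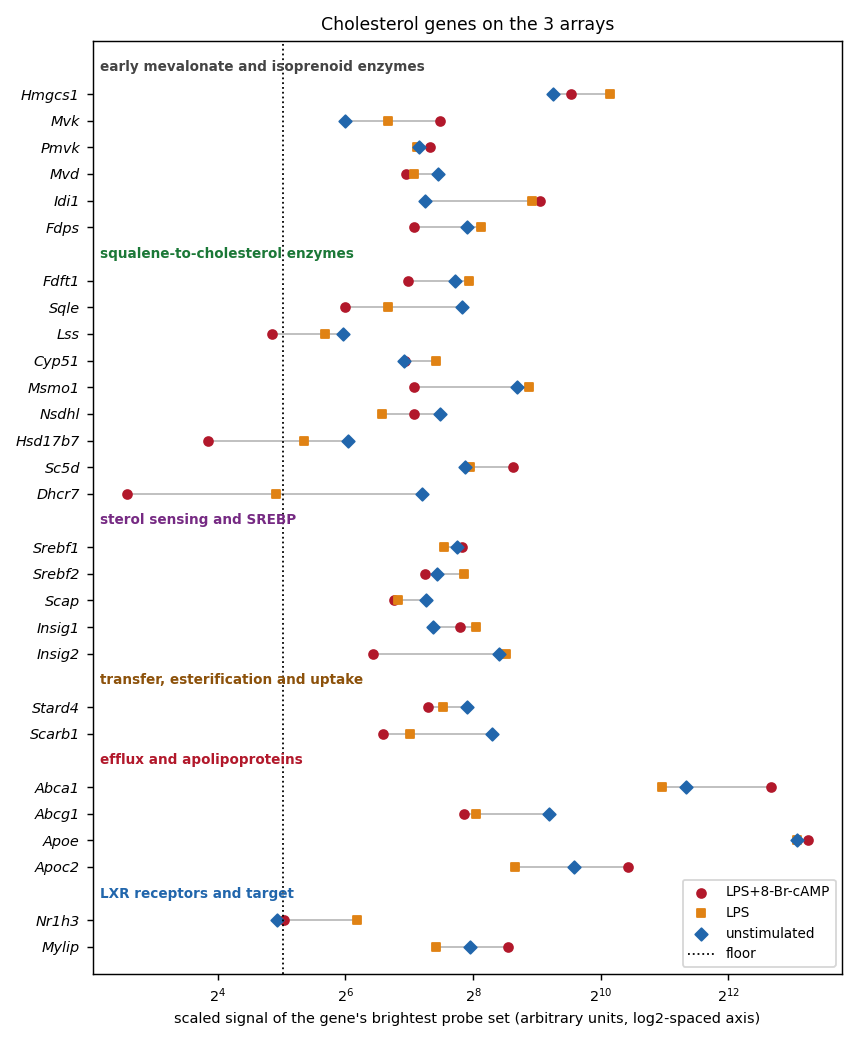
Scaled signal (horizontal axis, log2-spaced, arbitrary units) of the brightest probe set of each of the 28 genes on the LPS+8-Br-cAMP, LPS and unstimulated arrays, grouped by role. Each symbol is 1 array, the grey line spans the 3 arrays and the dotted line is the floor of 32.5. Abca1, Apoc2 and Mylip were brightest with LPS+8-Br-cAMP (for Apoc2 and Mylip not in the signals as deposited, which were brightest in unstimulated cells), and Insig2 and Msmo1 were dimmest there.

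The culture with LPS and the analogue was first set against the culture with LPS alone. An exporter gene, an apolipoprotein gene and an LXR target were higher, and some genes of synthesis and sterol sensing were lower. Abca1 and Apoc2 were over 3-fold higher and Mylip over 2-fold higher, whereas Insig2 was over 4-fold lower, Msmo1 over 3-fold lower, and Fdps and Nr1h3 about 2-fold lower. Of 27 measured genes, 3 passed 2-fold upward (11.1%) and 4 passed it downward (14.8%). Over all 12572 measured genes these shares were 6.49% and 5.81%. With counts of 3 and 4 genes and no test, nothing is read from the gap between these shares.

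Abca1 encodes the transporter that loads cholesterol and phospholipid onto apolipoprotein A-I. Its scaled signal was 6543 with LPS+8-Br-cAMP, 1994 with LPS and 2576 unstimulated. The LPS+8-Br-cAMP array stood above both others, and the log2 difference against LPS was 1.71 (3.28-fold), with 1.11% of all measured genes higher. Its other 2 probe sets gave 1.52 and 1.56. Apoc2, the cofactor of lipoprotein lipase, was at 1376 with LPS+8-Br-cAMP, 405 with LPS and 767 unstimulated. It was highest with LPS+8-Br-cAMP and lowest with LPS, a log2 difference between these arrays of 1.76 (3.40-fold, 0.98% of genes higher). Its place above unstimulated cells depended on the scaling, with a log2 difference of 0.84 that turned to -0.25 in the signals as deposited. Mylip was at 373 with LPS+8-Br-cAMP, 172 with LPS and 246 unstimulated, a log2 difference against LPS of 1.12 (2.17-fold) and against unstimulated cells of 0.60, which turned to -0.50 as deposited. Apoc2 and Mylip have 1 probe set each, so no second reading exists here.

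Other genes of efflux did not follow. Abcg1, which exports cholesterol to high-density lipoprotein, was at 233 with LPS+8-Br-cAMP, 264 with LPS and 584 unstimulated. Both stimulated arrays were low, and they differed by -0.18 on the log2 scale. Apoe, the apolipoprotein that macrophage-lineage cells secrete, was at 9772 with LPS+8-Br-cAMP, 8639 with LPS and 8669 unstimulated, so the 3 arrays were nearly level (0.18 against LPS). The median of the 4 efflux and apolipoprotein genes was 0.95, against 0.05 for all measured genes. It falls in the gap between Apoe (0.18) and Abca1 (1.71) and lies near no single gene. Nr1h3, the receptor gene of the same set, was at 32.9 with LPS+8-Br-cAMP, 72.2 with LPS and 30.4 unstimulated. Only the LPS array was clearly above the floor, and the difference of -1.13 rests on signals close to it.

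In sterol sensing Insig2 stood out. Its brightest probe set read 86.5 with LPS+8-Br-cAMP, 368 with LPS and 339 unstimulated. The analogue culture was low and the other cultures lay close together, with a log2 difference against LPS of -2.09 (4.25-fold lower, 0.31% of genes lower). Its other probe sets gave -0.73 and -1.39, the same direction but smaller. Insig1, the paralogue whose own transcription follows SREBP activity, was at 222 with LPS+8-Br-cAMP, 264 with LPS and 166 unstimulated, a difference against LPS of -0.25. Srebf2, the SREBP of cholesterol synthesis, gave -0.61 by its brightest probe set and 0.31 by the other, which leaves its direction unsettled. Srebf1, the SREBP of fatty acid synthesis, differed by 0.30 and Scap by -0.06.

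Of 8 measured enzymes of the path from squalene to cholesterol, 6 had differences below 0 with the analogue and 2 above it, with a median of -0.57 (-0.83 to -0.28 under the 4 other scalings), and 1 passed 2-fold downward. Of all measured genes 46.8% lay below 0, 5.81% were lower by 2-fold, and the median was 0.05. Msmo1, the sterol C4-methyl oxidase, was at 135 with LPS+8-Br-cAMP, 468 with LPS and 411 unstimulated. It was low on the analogue array only, with a log2 difference against LPS of -1.79 (3.46-fold lower, 0.71% of genes lower). Its second probe set was near or under the floor on every array, at 7.18, 30.8 and 34.3. Fdft1, squalene synthase, was at 126 with LPS+8-Br-cAMP, 245 with LPS and 209 unstimulated. Its difference was -0.96 by the brightest probe set and -1.01 by the next, on either side of 2-fold, with 2 dimmer ones under the floor on the LPS+8-Br-cAMP array and lower by bounds of -0.29 and -0.06.

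Sqle, squalene epoxidase, differed by -0.67 and Cyp51, lanosterol demethylase, by -0.48. Lss, lanosterol synthase, disagreed with itself, at least 1.58-fold lower by its brightest probe set and 0.57 higher on the log2 scale by the next. Sc5d, a sterol desaturase, also disagreed, at 0.68 and -0.40. Nsdhl, an X-linked sterol dehydrogenase, was at 135 with LPS+8-Br-cAMP, 95.2 with LPS and 180 unstimulated, a difference against LPS of 0.51. Hsd17b7, a sterol ketoreductase, was under the floor with LPS+8-Br-cAMP and at least 1.25-fold lower, with 2 dimmer probe sets also lower and another higher. Dhcr7, the last enzyme of one branch, was under the floor on both arrays and gave no difference.

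Early enzymes split. Fdps, farnesyl diphosphate synthase, was at 135 with LPS+8-Br-cAMP, 280 with LPS and 239 unstimulated, a log2 difference against LPS of -1.06 (2.08-fold lower). Hmgcs1, which makes HMG-CoA, was at 740 with LPS+8-Br-cAMP, 1134 with LPS and 608 unstimulated. It was highest with LPS, and its 5 probe sets all gave negative differences against LPS, from -1.06 to -0.33. Mvk, mevalonate kinase, differed by 0.81, but by -0.32 on its other probe set. Pmvk, Mvd and Idi1, the next enzymes of isoprenoid synthesis, differed by 0.21, -0.12 and 0.12, with -0.51 by the second probe set of Mvd and -0.43 by that of Idi1. Of 14 measured synthesis enzymes 9 had differences below 0, beside 46.8% of all measured genes, and 5 above it, with a median of -0.40 against 0.05 for all.

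Stard4, a carrier that moves cholesterol between membranes, differed by -0.23, -0.44 and -0.60 over its 3 probe sets. Scarb1, the high-density lipoprotein receptor, was at 95.9 with LPS+8-Br-cAMP, 130 with LPS and 313 unstimulated. Its brightest probe set gave -0.43 against LPS, and its 2 dimmer ones -1.30 and -1.10, so its place beyond 2-fold depended on the probe set.

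**Figure D2:**
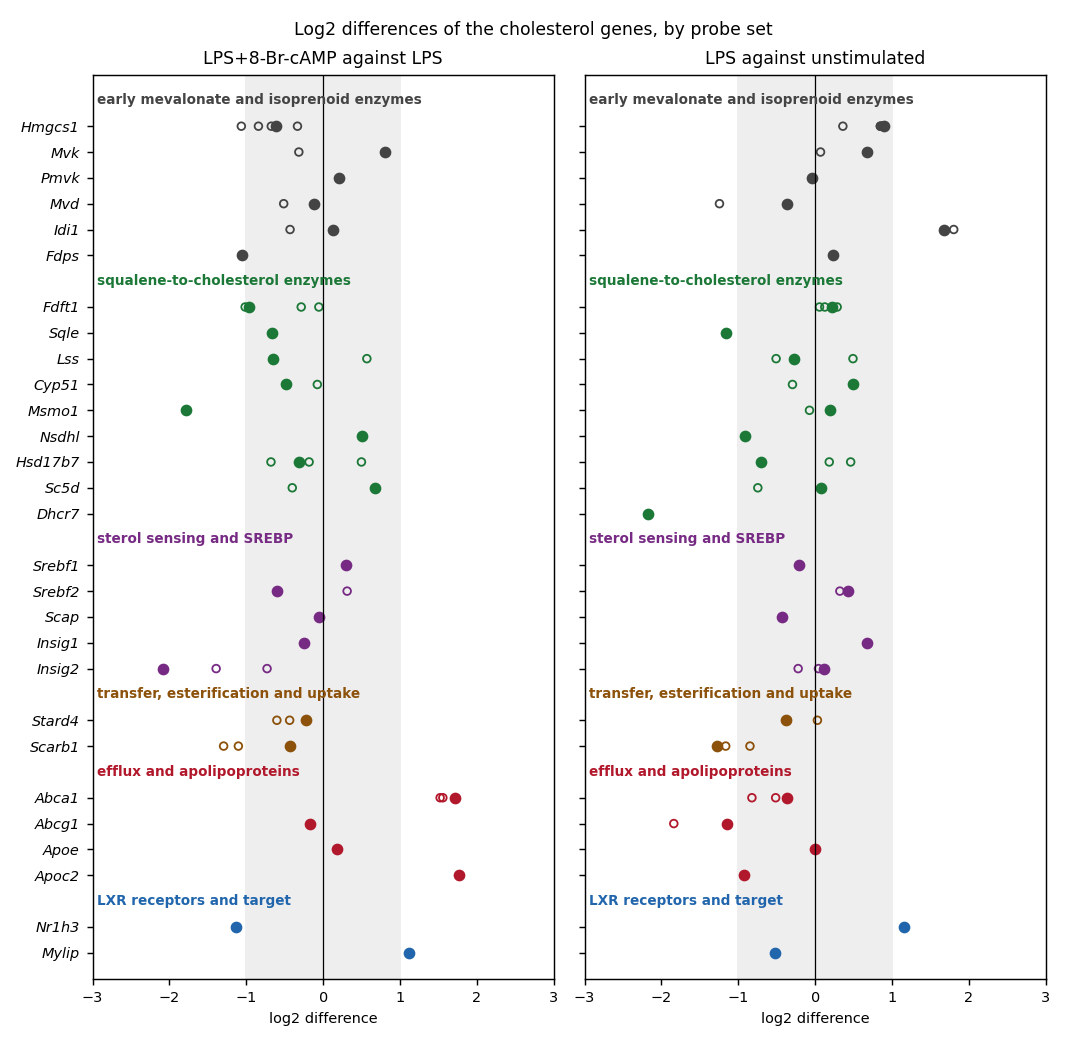
Log2 differences (horizontal axes) of each gene for LPS+8-Br-cAMP against LPS (left) and LPS against unstimulated (right). Filled points are the brightest probe set, open points the other probe sets that were above the floor on either array, the grey band is under 2-fold, and differences against a signal at the floor are lower bounds. With 8-Br-cAMP the 3 probe sets of Abca1 lie at 1.52 to 1.71 and those of Insig2 at -2.09 to -0.73.

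The scaling sets the zero of this comparison. In the signals as deposited, where the LPS+8-Br-cAMP array is dimmer, log2 differences of genes above the floor are 0.81 lower. Abca1 then stood at 0.90, Apoc2 at 0.95 and Mylip at 0.31, still positive but under 2-fold. Under quantile, median and spike scaling, and as deposited, Insig2 ranged from -2.90 to -1.89, Msmo1 from -2.60 to -1.59 and Fdps from -1.87 to -0.86. The median of the 27 genes was -0.23, or -0.28 relative to all measured genes, and that relative median lay between -0.28 and -0.21 under the 4 other scalings. For the 4 efflux and apolipoprotein genes the median was 0.14 to 1.15 under these scalings, and for the synthesis enzymes -0.81 to -0.23.

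Promoters of genes past 2-fold with 8-Br-cAMP are shown as the RefSeq sequence from 250 bases before to 50 after the annotated start (GRCm38.p6), where the table held one and the gene lay well above the floor. Hmgcs1 is added because it alone among the promoters available for these genes held the sterol regulatory element searched for. Of the 31 genes 25 had an entry. Fdps had none. For Insig2, which has 3 listed starts, the most upstream is shown. Capitals mark matches on either strand to the sterol element TCACNCCAC, the E-box CACGTG, the CCAAT box, the cAMP element TGACGTCA or its shorter form TGACG, which the longer form contains, and a loose direct repeat of the kind LXR binds, 2 copies of GGTNA with 5 bases between them.
Abca1, chr4:53159846-53160145, minus strand: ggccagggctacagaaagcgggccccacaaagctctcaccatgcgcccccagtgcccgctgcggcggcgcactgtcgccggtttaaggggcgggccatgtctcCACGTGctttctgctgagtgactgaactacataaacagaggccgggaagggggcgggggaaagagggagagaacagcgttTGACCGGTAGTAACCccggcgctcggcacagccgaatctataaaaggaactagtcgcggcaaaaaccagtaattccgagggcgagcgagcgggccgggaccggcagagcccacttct
Mylip, chr13:45389492-45389791, plus strand: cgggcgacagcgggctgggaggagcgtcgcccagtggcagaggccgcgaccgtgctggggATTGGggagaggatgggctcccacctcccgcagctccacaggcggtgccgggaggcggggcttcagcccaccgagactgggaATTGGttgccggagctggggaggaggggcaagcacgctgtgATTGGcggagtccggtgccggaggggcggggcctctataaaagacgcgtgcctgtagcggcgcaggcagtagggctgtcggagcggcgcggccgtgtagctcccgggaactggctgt
Apoc2, chr7:19677892-19678191, minus strand: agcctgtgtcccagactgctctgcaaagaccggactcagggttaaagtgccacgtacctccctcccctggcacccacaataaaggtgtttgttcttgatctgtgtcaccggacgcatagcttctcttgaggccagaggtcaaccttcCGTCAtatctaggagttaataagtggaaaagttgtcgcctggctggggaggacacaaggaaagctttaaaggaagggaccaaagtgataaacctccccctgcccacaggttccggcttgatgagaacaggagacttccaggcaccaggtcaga
Insig2, chr1:121332540-121332839, minus strand: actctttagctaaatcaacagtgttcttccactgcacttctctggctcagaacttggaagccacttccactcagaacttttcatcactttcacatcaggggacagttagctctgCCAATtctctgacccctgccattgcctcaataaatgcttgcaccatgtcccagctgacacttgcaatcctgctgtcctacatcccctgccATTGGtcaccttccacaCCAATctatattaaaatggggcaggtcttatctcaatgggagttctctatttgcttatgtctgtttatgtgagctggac
Msmo1, chr8:64733529-64733828, minus strand: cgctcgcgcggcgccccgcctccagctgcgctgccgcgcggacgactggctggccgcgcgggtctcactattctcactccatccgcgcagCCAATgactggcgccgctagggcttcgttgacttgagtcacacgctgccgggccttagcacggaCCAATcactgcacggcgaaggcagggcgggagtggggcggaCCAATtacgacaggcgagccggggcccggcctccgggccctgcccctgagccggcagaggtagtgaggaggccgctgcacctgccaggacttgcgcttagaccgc
Hmgcs1, chr13:119690101-119690400, plus strand: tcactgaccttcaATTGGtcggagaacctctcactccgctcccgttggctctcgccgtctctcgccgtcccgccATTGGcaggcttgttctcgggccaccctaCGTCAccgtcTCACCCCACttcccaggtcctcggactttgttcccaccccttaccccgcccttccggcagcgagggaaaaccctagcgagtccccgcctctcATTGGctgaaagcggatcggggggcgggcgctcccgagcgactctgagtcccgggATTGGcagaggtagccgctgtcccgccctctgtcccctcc
The Abca1 window held an E-box 147 bases before the start, a motif in 7.15% of all 32851 promoters in the table and in 7 of the 36 promoters listed for the 25 genes. It also held the loose repeat 67 bases before the start, on the reverse strand. This repeat was in 0.718% of all promoters and in 2 of the 36, those of Abca1 and Srebf1. The sterol element was in 1.24% of all promoters and in 1 of the 36, that of Hmgcs1. The full cAMP element was in 1.79% of all promoters and in 0 of the 36. Its shorter form TGACG was in 20.8% of all promoters and in 11 of the 36 (30.6%), among them those of Apoc2 and Hmgcs1 as shown and another start of Insig2 that is not shown. CCAAT was in 37.4% of all promoters and in 19 of the 36 (52.8%), with 3 copies each in the Mylip, Insig2 and Msmo1 windows and 4 in that of Hmgcs1. A match describes letters only, and the windows leave out distant elements.

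**Figure D3:**
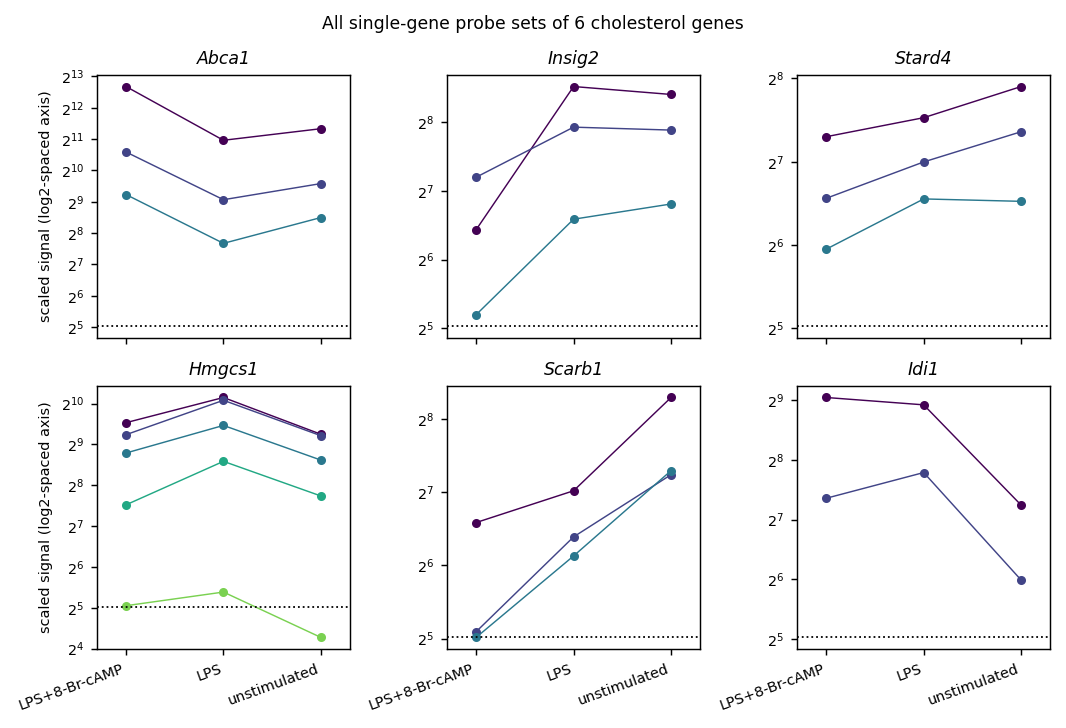
Scaled signal (vertical axis, log2-spaced) of every single-gene probe set of Abca1, Insig2, Stard4, Hmgcs1, Scarb1 and Idi1 on the LPS+8-Br-cAMP, LPS and unstimulated arrays, 1 line per probe set, with darker lines for brighter probe sets and the floor dotted. Every Abca1 line is higher with LPS+8-Br-cAMP than with LPS, every Insig2 line is lowest with LPS+8-Br-cAMP, both Idi1 lines are low in unstimulated cells and all 3 Scarb1 lines are high there.

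The comparison of LPS with unstimulated cells shows how the LPS culture stood without the analogue. The isoprenoid enzyme Idi1 was over 3-fold higher, and the exporter Abcg1, the lipoprotein receptor Scarb1 and the enzyme Sqle were over 2-fold lower. Of 28 measured genes, 2 passed 2-fold upward (7.14%), Idi1 and Nr1h3, and 4 passed it downward (14.3%), Dhcr7, Scarb1, Sqle and Abcg1. Over all 12283 measured genes the shares were 6.64% and 13.0%, so these counts were near the background.

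Idi1, which isomerises isopentenyl diphosphate, was at 528 with LPS+8-Br-cAMP, 485 with LPS and 151 unstimulated. Both stimulated arrays were high, and LPS against unstimulated gave a log2 difference of 1.68 (3.21-fold), with 1.80 by the second probe set. Hmgcs1 was higher by 0.90, and its 4 brightest probe sets all gave 0.85 to 0.90. Mvk was higher by 0.67, but by 0.07 on its other probe set, and Insig1 by 0.67, both under 2-fold. Nr1h3 was at least 2.22-fold higher, from under the floor.

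Sqle was at 63.9 with LPS+8-Br-cAMP, 101 with LPS and 226 unstimulated. It was high in unstimulated cells only, and LPS gave a log2 difference of -1.16 (2.23-fold lower). Dhcr7 was at 5.94 with LPS+8-Br-cAMP, 30.1 with LPS and 147 unstimulated, above the floor on the unstimulated array alone and at least 4.51-fold lower with LPS. Nsdhl differed by -0.91, Hsd17b7 by -0.70 (0.46 and 0.18 by dimmer probe sets) and Lss by -0.27 (0.49 and -0.51 by dimmer ones, and 0.60 under quantile normalization), while Fdps (0.23), Fdft1 (0.22) and Msmo1 (0.19) were close to level. Cyp51 differed by 0.50, but by -0.30 by its second probe set, and Sc5d by 0.07, but by -0.75 by its second. Mvd, the decarboxylase that makes the isoprenoid unit, differed by -0.37, and by -1.25 by its second probe set.

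Among genes of uptake and efflux, Scarb1 differed by -1.27 (2.42-fold lower), with -0.85 and -1.16 by its other probe sets. Abcg1 differed by -1.15 (2.22-fold lower), and its second probe set, above the floor in unstimulated cells only, by -1.84. Apoc2 differed by -0.92, Abca1 by -0.37 (-0.51 and -0.82 by its other probe sets), Mylip by -0.52 and Stard4 by -0.37. Apoe differed by -0.01. Under the 4 other scalings Idi1 ranged from 1.29 to 1.79, Scarb1 from -1.66 to -1.14, Abcg1 from -1.54 to -1.08 and Sqle from -1.54 to -0.95. The 4 efflux and apolipoprotein genes had a median of -0.65, against -0.21 for all measured genes, and stayed negative at -1.03 to -0.58 under the 4 other scalings. The synthesis enzymes had a median of 0.07, which was -0.32 at the lowest of those scalings, where all genes shift as well. Relative to the median of all measured genes it was 0.28, and 0.12 to 0.35 under the alternatives.

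Set against unstimulated cells, the LPS+8-Br-cAMP culture differed by both agents together. It also differed from the unstimulated culture in the transcripts of sex and of other cells given above, whose part was not tested. Of 28 measured genes, 3 passed 2-fold upward (10.7%), beside 9.36% of all 12793 measured genes, and 7 passed it downward, beside 15.8% of all genes. The higher ones were Idi1 (1.80), Mvk (1.48, but -0.25 by its second probe set) and Abca1 (1.34, with 1.01 and 0.73 by its other probe sets). The lower ones were Dhcr7 (at least 4.51-fold), Insig2 (-1.97), Sqle (-1.82), Scarb1 (-1.71), Msmo1 (-1.60), Abcg1 (-1.33) and Hsd17b7 (at least 2.03-fold). Other probe sets, some against the floor, gave -0.69 and -1.61 for Insig2, -2.14 and -2.27 for Scarb1, -0.07 for Msmo1 and -1.84 for Abcg1. Dimmer probe sets of Hsd17b7 gave bounds of -0.22 and 0.50, in opposite directions. As deposited, Abca1 stood at 0.25 and Idi1 at 0.71, because this contrast is moved by 1.09 between deposited and scaled signals. Both comparisons with LPS+8-Br-cAMP use the same array, so they are not separate readings of it.

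**Figure D4:**
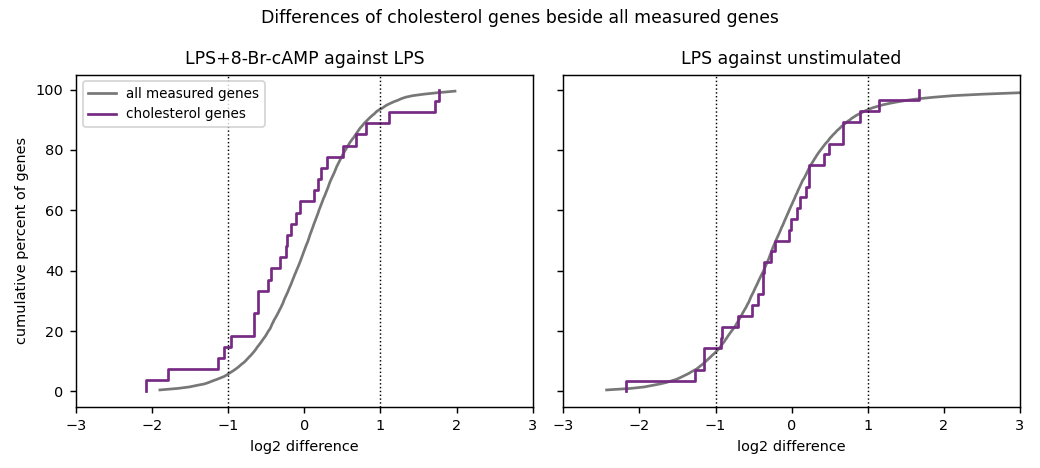
Cumulative percent of genes (vertical axis) against log2 difference (horizontal axes) for LPS+8-Br-cAMP against LPS (left) and LPS against unstimulated (right), with the cholesterol genes as steps, all measured genes as a grey line and 2-fold dotted. On the left the steps lie to the left of the grey line through most of the range (medians -0.23 for the cholesterol genes and 0.05 for all genes). On the right the medians are -0.13 and -0.21.

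A further 46 genes of sterol and lipid metabolism, in 4 lists, were looked at beside the 31, and 43 had a single-gene probe set. With LPS+8-Br-cAMP against LPS, 5 of 41 measured were at least 2-fold higher (12.2%, beside 6.49% of all measured genes) and 2 lower (4.88%, beside 5.81%), with a median of 0.12 against 0.05 for all. With LPS against unstimulated, 3 of 42 were higher (7.14%, beside 6.64% of all) and 9 lower (21.4%, beside 13.0%), with a median of -0.51 against -0.21 for all. With counts this small and no test, nothing is read from these gaps or from those of the lists below. The list of SREBP proteases and fatty acid genes had 0 of 13 higher (6.64% of all genes) and 4 lower (13.0% of all) with LPS, and a median of -0.63 against -0.21 for all. Scd2, a stearoyl-CoA desaturase, was at 225 with LPS+8-Br-cAMP, 357 with LPS and 1258 unstimulated. It was far lower on both stimulated arrays, by -2.48 with LPS+8-Br-cAMP and -1.82 with LPS. Fads1, a fatty acid desaturase, was at 69.3 with LPS+8-Br-cAMP, 72.4 with LPS and 344 unstimulated (-2.25 with LPS against unstimulated). Tmem97, a sterol-responsive membrane protein, was at least 2.99-fold lower with LPS than unstimulated. Fads2 was higher by 1.07 with LPS+8-Br-cAMP against LPS (0.47 by its second probe set). With LPS against unstimulated its probe sets disagreed, at 0.65 and -0.16.

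The list of lysosomal, oxysterol and uptake genes went both ways with LPS, 3 of 15 being at least 2-fold higher and 3 lower, beside 6.64% and 13.0% of all measured genes. Ch25h, which makes 25-hydroxycholesterol, was at 179 with LPS+8-Br-cAMP, 377 with LPS and 51.6 unstimulated. It was highest with LPS, 2.87 above unstimulated cells, and the analogue culture differed from the LPS culture by -1.07. Olr1, a receptor for oxidised lipoprotein, was at 908 with LPS+8-Br-cAMP, 818 with LPS and 126 unstimulated, high with LPS (2.70) whether or not the analogue was there.

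Among oxysterol-binding protein relatives, Osbpl9 and Osbpl8 differed in opposite directions between the LPS+8-Br-cAMP and LPS arrays. Osbpl9 was at 2428 with LPS+8-Br-cAMP, 569 with LPS and 1170 unstimulated, with a log2 difference against LPS of 2.09 (2.37 by its second probe set, and 0.45 and 0.11 by 2 dimmer ones). Osbpl8 was at 125 with LPS+8-Br-cAMP, 576 with LPS and 712 unstimulated, a log2 difference against LPS of -2.20 on its only probe set.

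Of 7 partners and targets of LXR, 2 passed 2-fold upward with LPS+8-Br-cAMP against LPS and 0 downward, beside 6.49% and 5.81% of all measured genes (median 0.15, against 0.05 for all). These were Apoc1, a neighbour of Apoe and Apoc2 in the same gene cluster, at 81.2 with LPS+8-Br-cAMP, 35.7 with LPS and 50.1 unstimulated (1.19), and the nuclear receptor corepressor Nrip1 (1.15, with 2.03, 0.84 and 0.10 by other probe sets). Rxra, which encodes the partner receptor of LXR, was at 59.2 with LPS+8-Br-cAMP, 54.4 with LPS and 233 unstimulated, a log2 difference of -2.10 for LPS against unstimulated, but 0.71 by its second probe set. Rxrb, another partner, differed from unstimulated by -1.15 with LPS+8-Br-cAMP and by -0.82 with LPS. The 7 measured further enzymes of sterol and isoprenoid synthesis had 0 past 2-fold with LPS+8-Br-cAMP against LPS. Nus1, of dolichol synthesis, was higher by 1.10 with LPS+8-Br-cAMP against unstimulated, with 0.49, 1.63, 1.01 and -0.09 by other probe sets. Fnta, a protein prenyltransferase subunit, differed by -1.10 with LPS against unstimulated, and by -0.77 by its second probe set.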

How the data were processed

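RNA of the 3 BMDC cultures was hybridised as biotinylated cRNA to 1 array each, per the labels' protocols. The authors deposited 1 linear signal intensity per probe set and array, for which the submitters' processing notes name MAS5. Its version and target value are not given in the sources used. Of 45101 probe sets, 64 controls were left out. The platform annotation gave 1 gene for 34945 probe sets, several for 932 and none listed for 9160. Symbols were updated through RefSeq gene identifiers, which 99.4% of the probe sets with 1 gene had, and 0 changed.

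Each array was multiplied by a factor to the average of the 3 means trimmed by 2% at each end. The floor, 32.5, was the median of whichever scaled array had the highest. A gene was measured in a comparison when above the floor on at least 1 of its 2 arrays. With 1 array per condition no test, p-value or interval was computed, and precision is limited by the number of arrays. The genes and lists were chosen with earlier results of these data known. All 31 genes are described. Of the other lists, at most 4 genes each were named, those past 2-fold in any comparison with the largest differences. Alternatives were 4 other scalings, 2 other floors, a pseudocount as large as the floor, averages over a gene's probe sets, only plain _at probe sets, and thresholds of 1.5-fold and 3-fold. Scaling and counting were tested on simulated data with differences planted in genes far above the floor. That check did not cover dim genes or the choice of probe set. Python 3.11.15, numpy 2.4.6 and pandas 2.3.3 were used.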

Additional observations from a re-analysis of the deposited data

How the results depend on the processing

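No paired analysis was possible because each condition has 1 array. Counts of cholesterol genes past 2-fold were small, so single genes near the threshold moved them, and counts from deposited signals carry the dimness of the LPS+8-Br-cAMP array. For LPS+8-Br-cAMP against LPS, the 3 higher genes became 0 as deposited and 5 at 1.5-fold. The 4 lower genes became 11 as deposited, 9 at 1.5-fold, and 2 under spike scaling, a pseudocount, the mean over probe sets, only plain _at probe sets or 3-fold. The median of -0.23 became -0.87 as deposited, -0.0015 under spike scaling and -0.12 at the higher floor. For LPS against unstimulated, the 2 higher genes became 1 as deposited, under spike scaling, at the higher floor, with a pseudocount, with only plain _at probe sets or at 3-fold, and 5 at 1.5-fold. The 4 lower genes became 7 under spike scaling or at 1.5-fold and 1 at 3-fold. The median of -0.13 became 0.048 under quantile normalization, 0.069 with only plain _at probe sets, -0.41 as deposited and -0.52 under spike scaling. For LPS+8-Br-cAMP against unstimulated, the 3 higher genes became 0 as deposited, 6 at 1.5-fold and 1 at 3-fold, and the 7 lower became 16 as deposited, 11 at 1.5-fold and 4 with only plain _at probe sets. The median of -0.30 became -0.044 under quantile normalization, -1.08 as deposited, -0.59 under spike scaling and -0.13 with the mean over probe sets. The Mvk difference of 1.48 in that comparison turned to -0.25 with only plain _at probe sets, where its brightest probe set is left out. Of the other values of single genes under these alternatives, 634 moved by less than the error of 1 probe set and 82 by more. All genes measured also shifted: their median for LPS+8-Br-cAMP against LPS was 0.05, -0.65 as deposited and 0.21 under spike scaling, and for LPS against unstimulated -0.21, -0.47 and -0.56. Beyond these points, the cause of a change was not tested. Dim genes (Lss, Hsd17b7, Dhcr7, Nr1h3) are limited by signal over background.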
